A study of Mus musculus with 6 samples.

Results

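The kinesins are the microtubule motor proteins of animal cells, and the kinesin genes described here are 29 of the 15792 genes measured on arrays of mouse testis RNA. They were taken by name, as the genes whose platform symbol is Kif followed by a number, or Kifc followed by a number, with Kif3a, Kif3b and Kif17 set aside. They are covered by 715 of the 188590 probe sets on the arrays, with 1 to 54 probe sets per gene and a median of 23. A probe set is a small group of probes over part of a transcript, and the level of a gene is its probe sets averaged on the log2 scale. The data come from 6 arrays of total testis RNA, 3 from wild-type (WT) mice and 3 from mice with a disrupted Ttll5 gene (also called Stamp, here KO), labelled as a full knockout with no tissue-specific driver. All were age- and sex-matched littermates of mixed C57BL/6, 129/SvEv and FVB/N descent. The labels give no age and do not say which part of the gene was removed. They call the replicates biological without saying whether an array holds 1 animal or a pool. A p-value here weighs a difference against the spread of these arrays within groups, which limma draws toward the spread of all genes. How far that spread is one between single animals is not known.

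Kinesins use ATP to walk along microtubules or to take microtubule ends apart. Some pull chromosomes and build the spindle in mitosis and meiosis, some carry vesicles and organelles, and some work in cilia and in the sperm flagellum, which is built around a core of microtubules. Ttll5 belongs to the enzymes that add glutamate chains to tubulin, and glutamate chains on the track are known to affect how several motors bind and move. Messenger RNA levels do not measure that step, and the comparison asks only whether motor transcripts differed between the testes of both genotypes.

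Ttll5 itself matched the labels. It read 11.16, 11.14 and 11.16 (log2 level) in WT arrays and 9.58, 9.49 and 9.53 in KO arrays, a difference of -1.62 (SE 0.066, limma adjusted p = 4.3e-05). Array medians ran from 6.72 to 6.77, and the number of arrays limits the precision. The tissue was checked through marker genes. In WT the spermatocyte gene Sycp3 had a mean level of 11.17, and the spermatid genes Acrv1 and Prm1 had 12.82 and 12.30. In KO Acrv1 had 12.74 and Prm1 12.17.

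The KO and WT arrays did not overlap in 2 of the 29 kinesins, Kif23 and Kif18a, where they did not in 11.2% of all genes. The promoters of these 2 are shown as a display only, from RefSeq (GRCm38.p6). Each is given as 250 bases before and 50 after the annotated start, 5′ to 3′ on the strand of the gene. Capitals in Kif23 mark GTTGCC, the core of an RFX factor half-site, then CCAAT on the opposite strand (read as ATTGG), then TTTGAA, the cell cycle homology element of genes expressed in G2 and mitosis. Capitals in Kif18a mark GTTGCC, then TTTGGCGC on the opposite strand (an E2F-type word), then TGACGTCA, the palindromic cyclic AMP response element.
Kif23 promoter, chr9:61946750-61947049, minus strand: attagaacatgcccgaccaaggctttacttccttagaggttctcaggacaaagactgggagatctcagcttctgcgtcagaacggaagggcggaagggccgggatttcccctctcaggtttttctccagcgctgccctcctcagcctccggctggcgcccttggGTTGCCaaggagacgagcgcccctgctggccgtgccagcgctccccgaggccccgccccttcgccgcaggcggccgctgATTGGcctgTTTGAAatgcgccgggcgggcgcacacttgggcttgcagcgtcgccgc
Kif18a promoter, chr2:109280488-109280787, plus strand: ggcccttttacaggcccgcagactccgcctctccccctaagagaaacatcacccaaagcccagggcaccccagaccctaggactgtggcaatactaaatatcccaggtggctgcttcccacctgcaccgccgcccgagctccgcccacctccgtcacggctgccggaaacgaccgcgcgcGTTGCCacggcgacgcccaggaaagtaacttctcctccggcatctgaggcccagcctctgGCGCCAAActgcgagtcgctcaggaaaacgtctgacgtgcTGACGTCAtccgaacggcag
These words were searched on both strands. Of 32851 promoter windows of this length, 17.9% hold TTTGAA, 37.4% hold CCAAT, 12.5% hold GTTGCC, 0.514% hold TTTGGCGC and 1.79% hold TGACGTCA. A match is a description of the letters and not a shown site.

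TTTGAA lay in the window of all 6 mitotic kinesins that had one, and Kif20a had no window. The word was picked for description by its matches, from 13 words searched, so the counts below describe the letters only. Windows of 23 of the 29 kinesins were searched. TTTGAA lay in 6 of the 6 mitotic kinesins searched (Kif2c, Kif4, Kif11, Kif15, Kif20b and Kif23). It lay in 2 of 3 of the meiotic and germ cell spindle class (Kif22 and Kifc1). It was also in 1 of 7 transport kinesins, in 1 of 4 spermatid and ciliary kinesins and in 1 of 3 others. The match nearest the start of each of those 8 genes is shown, with TTTGAA or its opposite-strand form TTCAAA in capitals.
Kif11, chr19:37376346-37376385, plus strand: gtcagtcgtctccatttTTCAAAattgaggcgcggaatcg
Kif15, chr9:122951045-122951084, plus strand: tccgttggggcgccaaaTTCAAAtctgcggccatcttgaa
Kif20b, chr19:34922348-34922387, plus strand: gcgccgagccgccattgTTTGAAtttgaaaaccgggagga
Kif23, chr9:61946775-61946814, minus strand: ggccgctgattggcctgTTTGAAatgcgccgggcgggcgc
Kif4, chrX:100626067-100626106, plus strand: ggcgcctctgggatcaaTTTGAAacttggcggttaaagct
Kif2c, chr4:117178853-117178892, minus strand: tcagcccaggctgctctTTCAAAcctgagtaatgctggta
Kif22, chr7:127042415-127042454, minus strand: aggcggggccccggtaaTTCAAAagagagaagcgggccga
Kifc1, chr17:33890610-33890649, minus strand: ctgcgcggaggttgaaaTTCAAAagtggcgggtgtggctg
The first base of the element lies at -19 from the start in Kif11 and Kif15, at -17 in Kif22, at 2 to 20 in Kifc1, Kif23, Kif20b and Kif4, and at -103 in Kif2c. A second copy directly follows the first in Kif20b. Of all promoter windows 17.9% held the word. The class counts depend on each kinesin being put in 1 class. Kif18a and Kif2a, placed in other classes although they also act on spindles, had windows without it. No test was run on these counts.

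No kinesin gene passed the test of KO against WT. In limma's fit over all 15792 genes with Benjamini-Hochberg adjustment, 0 of the 29 had an adjusted p under 0.05, where 0.0697% of all genes did, and the smallest adjusted p among them was 0.713. Without adjustment 2 of the 29 had p under 0.05, against 6.05% of all genes, and both were lower in KO, against 3.44%. The arrays of both groups were apart in the same 2 of 29, against 11.2% of all genes (6.67% apart and lower). Mean values were lower in KO in 18 and higher in 11, where 48.9% of all genes were higher. The median of the 29 differences was -0.018, beside -0.0026 over all genes, and its sign turned without WT 3 (0.0064) and without KO 2 (0.0049). The shares of the 29 with p under 0.05 or with groups apart are near or under those of all genes.

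On the scale of array values, the sizes that these arrays leave room for were small. The 95% intervals of limma, not adjusted for the number of genes, lay within a 1.5-fold difference in either direction for 28 of 29 kinesins and within 1.2-fold for 18. Kifc1, measured by a single probe set, was the exception, with an interval of -0.33 to 0.72 that stays within 2-fold. Over the other 28 the bounds reached -0.48 and 0.49. The 28 include dim genes such as Kif26b and Kif12, with WT means of 4.42 and 4.44, under the lower quartiles of the arrays. For dim genes the interval bounds the array value and may not bound the change of the transcript. These intervals apply to the deposited values, in which arrays were made alike, so these values hide a shift common to most transcripts. In whole testis, fewer cells of a type and less RNA per cell cannot be told apart.

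**Figure D1:**
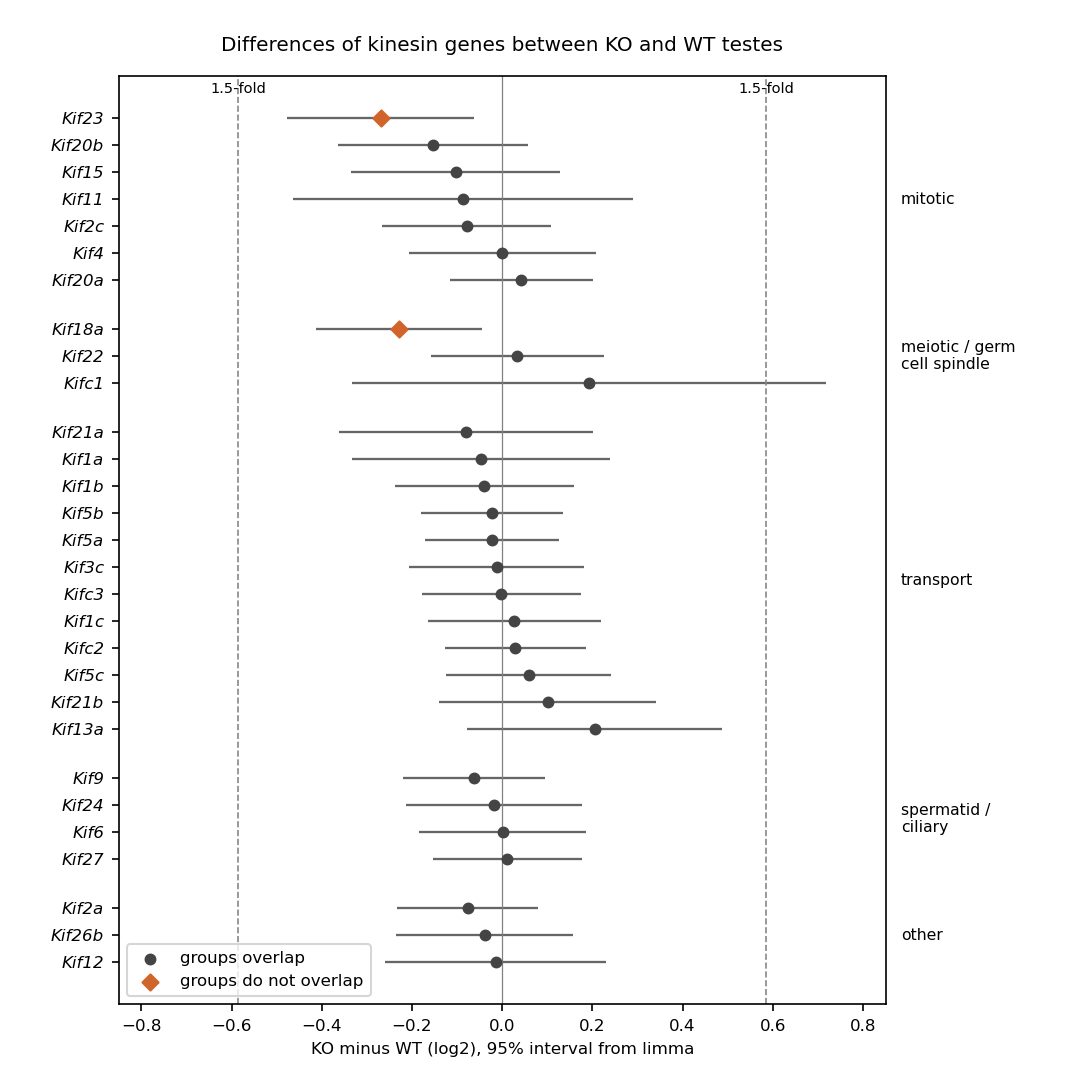
Difference of each of the 29 kinesin genes between KO and WT testes (log2, points) with its 95% interval from limma (lines), by class; dashed lines mark a 1.5-fold difference. Kif23 (-0.27) and Kif18a (-0.23), the diamonds, are the 2 genes whose 3 KO and 3 WT arrays did not overlap, against 11.2% of all genes. Only the interval of Kifc1 crosses a dashed line.

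Among the 7 mitotic kinesins, 5 stood lower and 2 higher in KO by their means, and the median of the differences was -0.087. Without WT 3 that median was -0.013. None passed the threshold. Kif23, the motor of the centralspindlin complex that builds the midbody in cytokinesis, read 8.64, 8.80 and 8.91 (log2 level) in WT and 8.53, 8.59 and 8.43 in KO. Every KO array was below every WT array, although the gap between the highest KO and the lowest WT array was smaller than the spread within either group. The difference was -0.27 (SE 0.090, 95% interval -0.48 to -0.062, limma adjusted p = 0.713), or 83.0% of the WT level. It kept its sign in each of 13 alternatives, from -0.34 to -0.21, and the lowest adjusted p among them was 0.51.

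Kif20b, a motor of late cytokinesis, read 8.45, 8.44 and 8.47 in WT and 8.48, 8.27 and 8.15 in KO. KO 1 was above all WT arrays, so the groups overlapped, and the difference was -0.15 (SE 0.092, limma adjusted p = 0.88). It was -0.24 without KO 1 and -0.078 without KO 3, and -0.052 with the median of its probe sets. Kif11, the bipolar motor that pushes spindle poles apart, read 8.55, 8.62 and 8.62 in WT and 8.88, 8.51 and 8.14 in KO. The KO arrays lay on both sides of WT, with an SD of 0.37 against 0.037 in WT, and the difference was -0.087 (SE 0.16). Leaving out KO 1 gave -0.27 and leaving out KO 3 gave 0.098.

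Kif15, which shares the task of Kif11 in the spindle, differed by -0.10 (SE 0.10) and read 9.06, 8.99 and 9.29 in WT and 8.95, 8.95 and 9.14 in KO. Kif2c, a kinesin that shortens microtubules at centromeres, differed by -0.079 (SE 0.081), and its WT 3 array at 11.47 stood above the other 5, which lay between 11.20 and 11.28. Kif20a, a motor of the central spindle, differed by 0.043 (SE 0.069). Kif4, a chromosome-bound motor on the X chromosome, differed by 0.00033 (SE 0.090), with 16 of its 34 probe sets above the lower quartile in every array.

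Other genes of dividing cells were compared with the mitotic kinesins. Of 13 measured from a list without kinesins, 10 had lower and 3 higher mean values in KO, with a median of -0.071 and none past the threshold (limma, 1 with an unadjusted p under 0.05). The mean level of the list was 9.24 to 9.33 over the WT arrays and 9.17 to 9.24 over the KO arrays. Mki67, a marker of cycling cells, had the lowest difference of the 13, -0.24 (SE 0.089, limma adjusted p = 0.76). Top2a, the topoisomerase of dividing cells, differed by -0.071 (SE 0.071). The 3 higher genes were Nusap1 (0.057), Aurkb (0.038) and Plk1 (0.011). The part of dividing cells in the values of Kif23 was not tested.

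In the class of meiotic and germ cell spindle kinesins, 3 genes were measured and none passed. Kif18a, which limits chromosome movements at spindle microtubule ends and whose loss is known to deplete germ cells in male mice, read 8.33, 8.42 and 8.41 in WT and 8.08, 8.29 and 8.11 in KO. All KO arrays were below all WT arrays, with KO 2 within 0.1 of WT 1. The difference was -0.23 (SE 0.080, 95% interval -0.41 to -0.044, limma adjusted p = 0.75), or 85.4% of the WT level. Over 13 alternatives it ran from -0.29 to -0.19, and the lowest adjusted p was 0.61.

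Kif22, which pushes chromosomes outward by walking along spindle microtubules with its cargo of DNA, differed by 0.033 (SE 0.083), with overlapping groups at means of 7.06 in WT and 7.10 in KO. Kifc1, a motor toward the minus end that focuses spindle poles and is known from spermatids too, read 6.33, 5.91 and 6.38 in WT and 5.87, 6.53 and 6.80 in KO. The arrays of both groups were intermixed, and the difference of 0.19 had an SE of 0.23. It is uncertain for a further reason, since Kifc5b is a near-identical copy and the single probe set may read both. Sycp3, a protein of meiotic chromosomes, had a difference of -0.16 (SE 0.076, limma adjusted p = 0.84). Of 10 spermatocyte markers measured, 9 had lower and 1 higher mean values in KO, with a median of -0.065. Their mean level was 10.62 to 10.68 over WT and 10.55 to 10.65 over KO arrays. Their part in the values of Kif18a was not tested.

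The 12 transport kinesins had 7 lower and 5 higher values in KO, a median difference of -0.0068 and 0 genes with an unadjusted limma p under 0.05. The heavy chains of conventional kinesin, which carry mitochondria and vesicles, differed little. Kif5b, the form found in most tissues, read 8.26, 8.29 and 8.19 in WT and 8.28, 8.20 and 8.19 in KO, a difference of -0.023 (SE 0.069, 95% interval -0.18 to 0.14). Kif5a and Kif5c, known mainly from neurons, differed by -0.022 (SE 0.065) and 0.059 (SE 0.079). For Kif5a only 7 of 26 probe sets lay above the lower quartile in every array, so its gene value rests largely on dim probe sets.

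The kinesin-3 motors of vesicles were spread to both sides. Kif13a, which moves endosomes, had the highest difference of the 29, 0.21 (SE 0.12, limma adjusted p = 0.88). It read 4.76, 4.74 and 4.90 in WT and 4.96, 4.79 and 5.28 in KO, where KO 2 lay inside the WT range. Without KO 3 the difference was 0.071. Kif1a, Kif1b and Kif1c, carriers of synaptic and other vesicles, differed by -0.047 (SE 0.12), -0.040 (SE 0.086) and 0.026 (SE 0.084).

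Kif21a and Kif21b, motors that also restrain microtubule growth, differed by -0.080 (SE 0.12) and 0.10 (SE 0.10). With 1 array left out the difference of Kif21a ran from -0.19 (without WT 3) to -0.0029 (without KO 3), and that of Kif21b from 0.034 (without WT 1) to 0.21 (without WT 2). In Kif21b WT 2, at 7.35, was above the other arrays, and the remaining WT arrays, at 6.98 and 7.02, were below all KO arrays. Kifc2 and Kifc3, motors toward the minus end, differed by 0.029 (SE 0.068) and -0.0016 (SE 0.076). Kif3c, a relative of Kif3a and Kif3b that pairs with Kif3a, differed by -0.012 (SE 0.084).

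The 4 spermatid and ciliary kinesins had differences from -0.062 to 0.011, and none passed. Kif9, a motor of the central pair of the flagellum that is known for its role in sperm movement, read 11.24, 11.25 and 11.25 in WT and 11.26, 11.12 and 11.17 in KO. The WT arrays were almost equal and KO 1 was above them, so the groups overlapped, with a difference of -0.062 (SE 0.069, 95% interval -0.22 to 0.095, limma adjusted p = 0.95). Kif27, of the family that acts in Hedgehog signalling and in motile cilia, read 10.55, 10.65 and 10.65 in WT and 10.66, 10.55 and 10.67 in KO, a difference of 0.011 (SE 0.072).

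Kif6, a kinesin of the same broad group as Kif9, read 7.88, 7.99 and 7.93 in WT and 7.93, 7.83 and 8.05 in KO, a difference of 0.00095 (SE 0.081, 95% interval -0.18 to 0.19). Kif24, which remodels centriolar microtubules and holds back cilium growth, differed by -0.018 (SE 0.085, 95% interval -0.21 to 0.18). None of these intervals reaches a 1.2-fold difference. Among spermatid markers, 8 of 11 for round spermatids and 11 of 12 for elongating spermatids had lower mean values in KO, with medians of -0.084 and -0.064. Their mean levels ran from 10.83 to 10.90 and 12.30 to 12.38 over the WT arrays and from 10.75 to 10.83 and 12.25 to 12.31 over the KO arrays. Their part in the kinesin values was not tested.

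Of the 3 kinesins in no class, Kif2a, which takes microtubules apart at spindle poles and in neurons, differed by -0.077 (SE 0.068), from 10.70, 10.76 and 10.80 in WT to 10.72, 10.65 and 10.65 in KO. Kif26b, a kinesin of development that has lost motor activity, and Kif12, known from kidney and liver, differed by -0.039 (SE 0.085) and -0.015 (SE 0.11). Their mean levels in WT, 4.42 and 4.44, were under the lower quartiles of the arrays (4.59 to 4.67), although 2 of 11 probe sets of Kif26b and 7 of 23 of Kif12 lay above the lower quartile in every array.

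**Figure D2:**
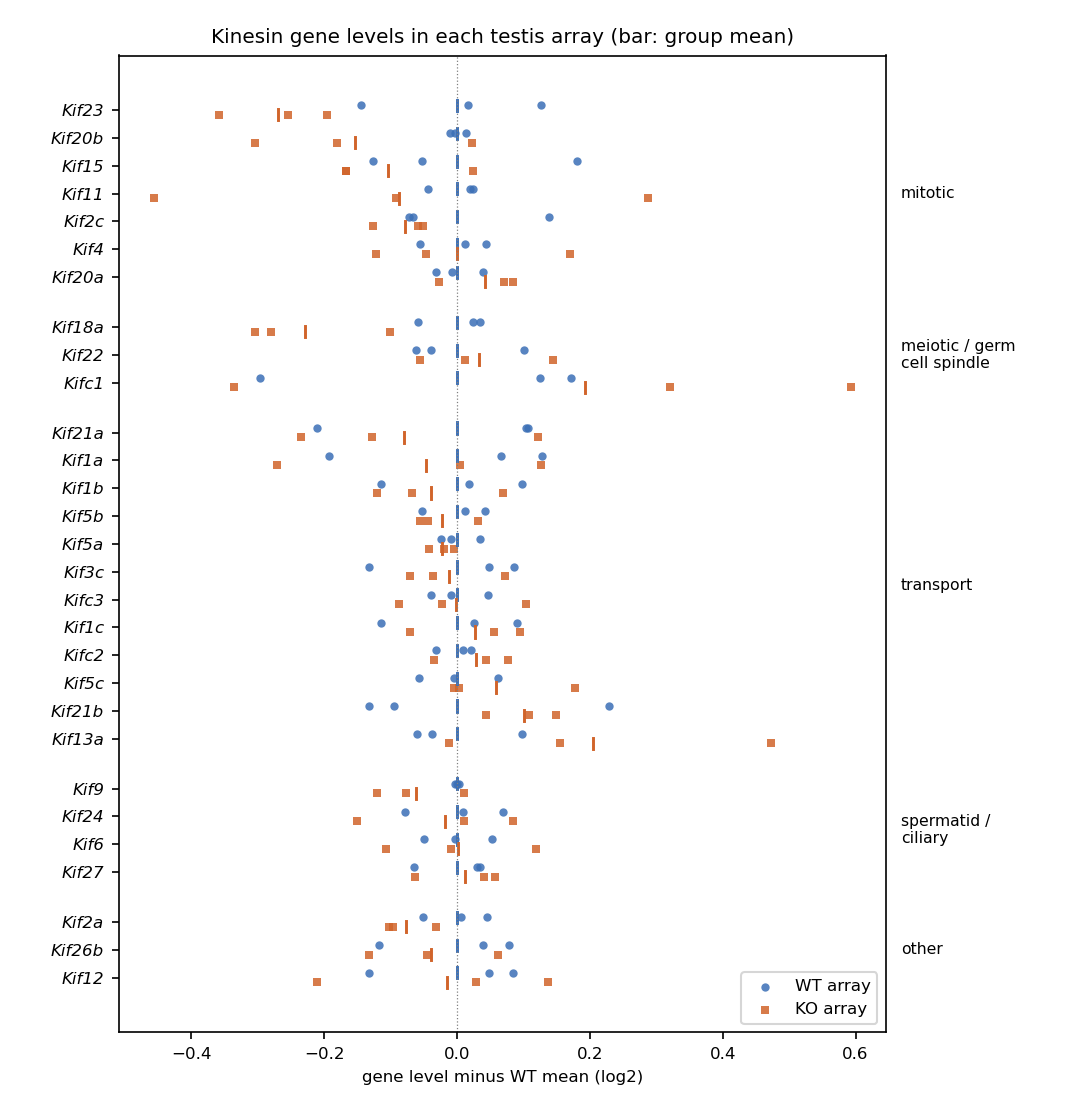
Level of each kinesin gene in each array minus its WT mean (log2), with WT arrays as circles, KO arrays as squares and group means as bars, by class. The KO squares lie wholly to the left of the WT circles for Kif23 and Kif18a, while in Kif11 and Kifc1 the KO arrays spread to both sides of WT.

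The position of the kinesins was examined because the 11 called genes of these arrays lie on chromosomes 12 and 9, and Ttll5 lies on 12. Kif9, Kif15 and Kif23 lie on chromosome 9 and Kif3c on chromosome 12. In the gene order of GRCm38.p6, Kif9 lies between Nme6, a nucleoside diphosphate kinase relative that fell by 1.07 (SE 0.075, limma adjusted p = 0.0012), and Tdgf1, a Nodal co-receptor that rose by 0.91 (SE 0.091, adjusted p = 0.012), with 10 measured genes between it and each of them. Kif9 itself differed by -0.062. Of the 20 measured genes nearest to Kif9, 1 had an unadjusted p under 0.05, and of those nearest to Kif15 and Kif23, 0 had.

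Kif15 was separated from the nearest called gene, Scn10a, by 35 measured genes, and Kif23 from Pik3r4 by 228. Kif3c was separated from Prps1l1 by 92 and from Ttll5 by 300. The chromosome of Kif18a, number 2, held 0 called genes of 1353, with p under 0.05 before adjustment in 4.95%. That share was 13.7% of 483 genes on chromosome 12 and 6.81% of 940 on chromosome 9, and the groups were apart in 19.5% and 12.0% of them, against 10.2% on chromosome 2. The part of linked sequence in the values of the chromosome 9 members was not tested.

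Single probe sets were tested next, since an exon array can show a change in part of a transcript. Of the 715 kinesin probe sets, 0 passed limma's adjustment over all probe sets, where 0.0382% of all did, and the smallest adjusted p was 0.727. Without adjustment 33 had p under 0.05 (4.62%, against 5.36% of all probe sets), 12 higher (2.62% of all were) and 21 lower in KO (2.74% of all). The groups were apart in 51 (7.13%, against 10.2%). A departure test then asked whether a probe set moved away from the mean of the others of its gene. It called 0 of 714 (limma, smallest adjusted p = 0.82), against 0.0102% of all, and 32 had an unadjusted p under 0.05 (4.48%, against 5.17%).

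In Kif18a 21 of 22 probe sets had lower mean values in KO, with a median of -0.22, and 4 had an unadjusted p under 0.05. In Kif23 20 of 27 were lower with a median of -0.17, and the range ran from -0.99 to 0.18. Probe sets of a gene read the same RNA samples, so these counts are not independent measurements.

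The Kif23 probe set with the smallest p was a bright one. It gave 10.06, 10.28 and 10.76 for WT and 9.74, 9.23 and 9.59 for KO, a difference of -0.85 (SE 0.22, limma adjusted p = 0.85). A second gave 8.03, 8.35 and 9.08 for WT and 7.66, 7.86 and 7.39 for KO, again -0.85 (SE 0.27). In both the groups were apart, the WT arrays were the more spread, and WT 3 was highest. The probe sets with larger differences, -0.90 (SE 0.41) and -0.99 (SE 0.46), had overlapping groups. None of the 4 passed over all probe sets.

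Other genes leaned one way over most of their probe sets without a gene-level difference past the threshold. Higher mean values in KO were read by 25 of 30 probe sets of Kif13a (median 0.16) and 33 of 44 of Kif21b (median 0.081). Lower ones were read by 23 of 31 of Kif15 (median -0.094) and 20 of 24 of Kif20b (median -0.082). For Kif13a 14 of the 30 lay above the lower quartile in every array, and without dim probe sets the difference of the gene was 0.27, against 0.21 with them.

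Single probe sets also had larger differences than the rest of their gene. The kinesin probe set with the smallest p belonged to Kif5a and read 5.85, 5.86 and 6.20 in WT and 4.98, 5.14 and 5.45 in KO. All KO arrays were lower, with a difference of -0.78 (SE 0.17, limma adjusted p = 0.727), while the median over the gene's 26 was -0.017. One of Kif9 read 10.91, 11.01 and 10.74 in WT and 10.45, 10.45 and 10.46 in KO, a difference of -0.43 (SE 0.12, adjusted p = 0.86) against a median of -0.032 over its 21. One of Kif27 had a mean higher in KO by 0.81 (SE 0.30, adjusted p = 0.89), with overlapping groups, since WT 2, at 10.74, was level with the lowest KO array, at 10.73. None of these passed, and which exon a probe set covers was not analysed here.

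**Figure D3:**
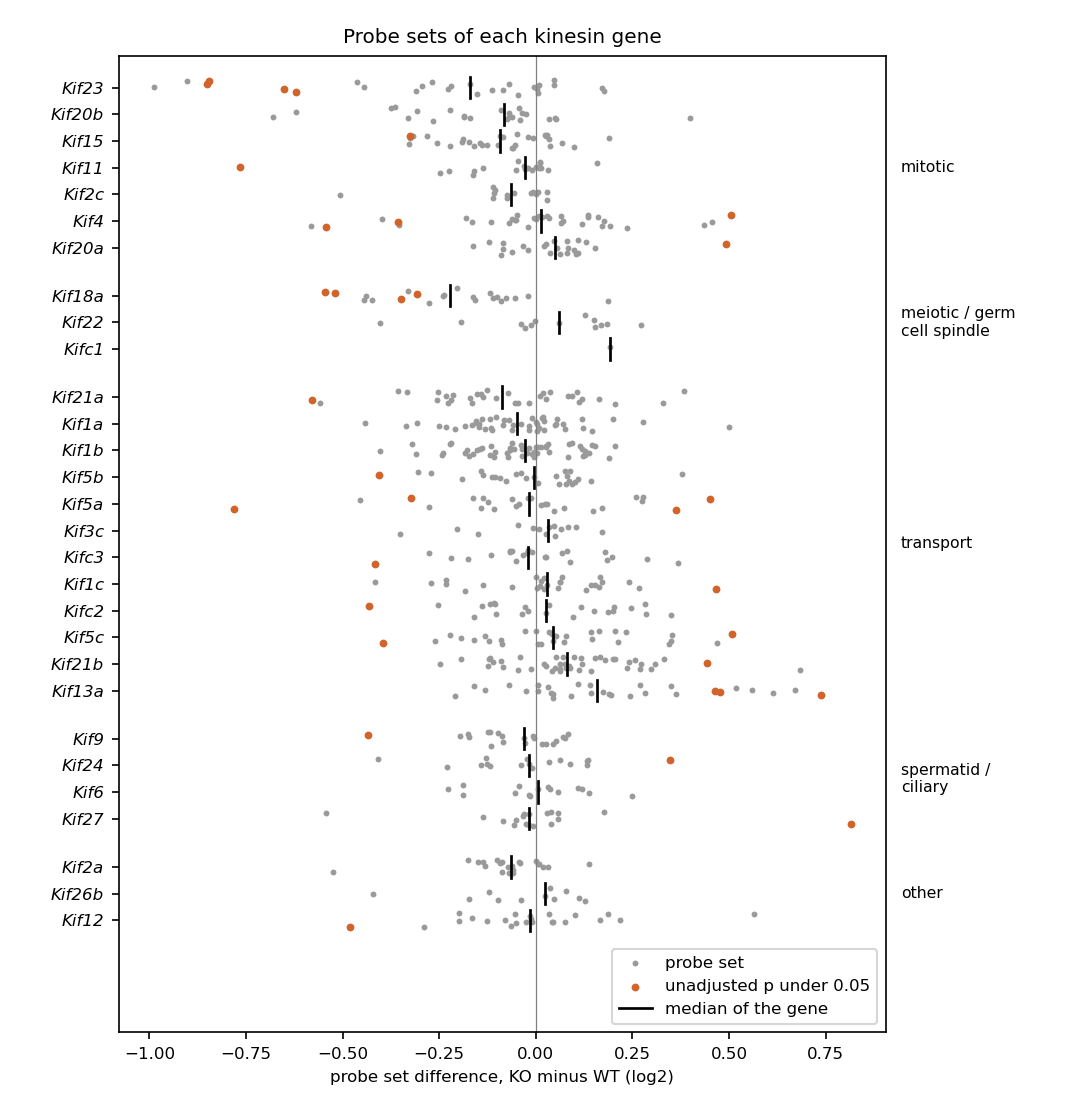
Differences between KO and WT (log2) of the 715 kinesin probe sets, 1 point each, in rows by gene and class, with the median of each gene as a bar and the 33 with an unadjusted limma p under 0.05 in orange. The points of Kif18a and Kif23 lie mostly left of 0 and those of Kif13a mostly right of it, and no point passed the adjusted threshold.

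The arrays of a group differed among themselves by more than the groups did. The median over the 29 of an array minus the WT mean ran from -0.039 to 0.039 in WT. It ran from -0.092 to 0.012 in KO, beside a median difference between the groups of -0.018. KO 2 was below the WT mean in 24 of 29 kinesins, with a median of -0.092, while KO 1 and KO 3 were each below it in 13. Among the WT arrays, WT 1 was below the group mean in 22 and WT 3 above it in 24. The median over all genes was between -0.026 and 0.0059 in each of the 6 arrays. The SD between arrays was larger in KO than in WT in 18 kinesins, with medians of 0.098 in KO and 0.074 in WT.

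Lists of marker genes were read beside the kinesins. Leydig cell markers had higher mean values in KO in 9 of 9 (median 0.22, mean level 8.84 to 9.09 over WT and 9.24 to 9.36 over KO arrays), and macrophage markers in 7 of 9 (median 0.17, 6.35 to 6.51 and 6.57 to 6.63). None of either passed over all genes. Markers of Sertoli cells, peritubular myoid cells, endothelium and spermatogonia had medians of 0.024, 0.036, -0.0022 and -0.072. By the median over a list in each array, all 3 KO arrays were above all 3 WT arrays for Leydig cells and macrophages and below them for spermatocytes (-0.10 to -0.031 in KO and -0.025 to 0.028 in WT) and round spermatids (-0.12 to -0.037 and -0.027 to 0.019). For both germ cell lists the margin was narrow. By mean level the spermatocyte arrays overlapped, with KO 2 at 10.65 above WT 1 at 10.62. Whether the make-up of the tissue bears on the kinesin values was not tested.

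**Figure D4:**
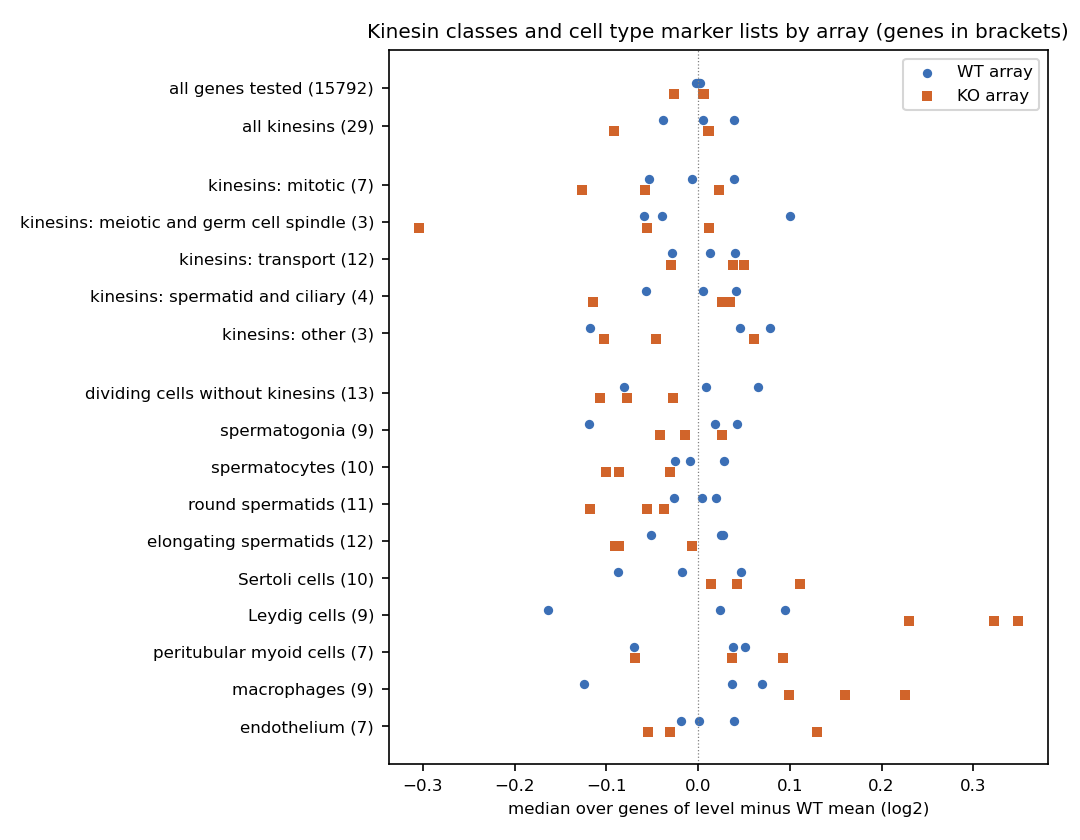
Median over the genes of each list of the level in an array minus the gene's WT mean (log2), with WT arrays as circles and KO arrays as squares; the number of measured genes is in brackets. In all 5 kinesin classes the WT and KO arrays overlap. The 3 KO arrays lie above the 3 WT arrays for Leydig cell and macrophage markers. They lie below them, by narrow margins, for spermatocyte and round spermatid markers.

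The partners of the kinesins gave 0 genes past the threshold as well. Of 19 light chains, cargo adaptors and the kinesins set aside above, 10 had higher and 9 lower values in KO, with a median of 0.026 and 0 with an unadjusted limma p under 0.05. Mapk8ip2, a scaffold that links kinesin to its cargo, was the only one of the 19 with groups apart, where 11.2% of all genes were. It stood at 9.24 in WT and 9.37 in KO (difference 0.13, SE 0.075, limma adjusted p = 0.88). Kif3a, Kif3b and Kif17, the motors of intraflagellar transport, differed by -0.072 (SE 0.094), -0.098 (SE 0.071) and -0.0028 (SE 0.081).

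Among 10 spindle partners, 7 had lower and 3 higher values in KO, with a median of -0.015 and 0 with an unadjusted limma p under 0.05. The 10 include Cenpe, itself a kinesin that the choice by name did not take. They also include Aurkb, which the list of dividing cells holds too. The groups were apart in 2 of the 10, against 11.2% of all genes. These 2 were Birc5 and Cdca8, subunits of the chromosomal passenger complex that guides Kif20a and Kif23 in cytokinesis. They differed by -0.16 (SE 0.071, limma adjusted p = 0.84) and -0.14 (SE 0.069, adjusted p = 0.86). Racgap1, the direct partner of Kif23 in centralspindlin, read 10.17 in WT and 10.16 in KO and differed by -0.010 (SE 0.078). Aurkb and Incenp, of the same passenger complex, differed by 0.038 (SE 0.068) and -0.0025 (SE 0.085).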

How the data were processed

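Whole testis RNA was measured on 6 Affymetrix exon arrays. The authors deposited log2 values of probe sets, and the submitters' processing notes name RMA and Partek 6.5 without a role; the background correction and the build were not given in the sources used here. Values were used as deposited. Of 188590 probe sets, 179163 had 1 symbol in the platform annotation, 1322 several and 8105 none. Only the first kind entered gene values, so 18 that name Kif18b beside another symbol were left out. Kif2b, Kif7, Kif13b, Kif14, Kif16b, Kif19a, Kif26a and Kifc5b were not analysed here. All 29 kinesin symbols matched RefSeq (GRCm38.p6).

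Genotypes were compared with limma 3.58.1 in R 4.3.3 (lmFit, eBayes, two-sided, Benjamini-Hochberg over all features, threshold 0.05) on genes, on probe sets, and on each probe set minus the mean of the others in genes with 3 or more. An exact permutation test of 3 against 3 cannot go below p = 0.1. On simulated arrays the comparison of KO with WT over 15792 genes recovered 6% of shifts of 0.25, 76% of shifts of 0.5 and 100% of shifts of 1 (log2), with 11 false calls in the run with shifts and 0 calls when no gene was shifted. The departure test over 176693 probe sets recovered 22% of shifts of 1 and 93% of shifts of 2, with 11 other calls. Each simulated run shifted many features at once, which loosens the adjusted threshold. The real arrays had 11 called genes, so recovery in them may be lower than simulated.

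Members, classes, lists and tests were chosen with earlier results of these data known. Each kinesin was put in 1 class, although many serve in several. Values by array are given for Ttll5, members on chromosomes 9 and 12, members with groups apart, and others picked after their values were seen. Promoter words were chosen with the expression values known, and those described were picked by their matches. Searched besides were TTTAAA, then GTTNCC, the E2F-type words TTTCGCGC and also TTTCCCGC and also TTTGCCGC, the response element variant TGACGTAA, the E-box CACGTG, and the GC box GGGCGG, making 13 in all. Alternatives changed the gene summary, the scaling, the moderation and the weights, added a replicate block, dropped dim features under percentile 40, or left out an array.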

Additional observations from a re-analysis of the deposited data

How the results depend on the processing

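No kinesin gene passed limma's adjusted threshold in any alternative run (counts of 0 throughout). The probe set and departure tests were not repeated with medians of probe sets, without dim genes, with array medians subtracted or with array weights. In the other alternatives they called 0 kinesin probe sets. The count of all genes called was 11, and 5 with the median of probe sets and 20 with trended and robust moderation. With 1 array left out the median difference of the mitotic kinesins ran from -0.11 to -0.013 (-0.013 without WT 3). The median over all 29 ran from -0.036 (without KO 1) to 0.0064 (without WT 3) and was -0.051 without dim probe sets. The other class medians moved by less than the spread between arrays. Of the 29 kinesins, 11, Kif23 and Kif18a among them, kept their sign in every alternative, and 18 turned in 1 or more, nearly all from differences near 0. With the median of probe sets, Kif12 stood at 0.035, Kif1b at 0.044, Kif20a at -0.0018, Kif22 at -0.016, Kif27 at -0.0012, Kif2c at 0.014, Kif3c at 0.011, Kif4 at -0.13, Kif6 at -0.037 and Kifc2 at -0.099. Without dim probe sets, Kif24 stood at 0.0060, Kif6 at -0.0075 and Kifc2 at -0.054. With quantile normalization, Kif4 stood at -0.012 and Kifc3 at 0.0052, and with array weights, Kif12 stood at 0.0049, Kif4 at -0.024, Kif6 at -0.0040 and Kifc3 at 0.0071. Leaving out 1 array gave -0.091 to 0.083 for Kif12, -0.031 to 0.075 for Kif1c, -0.021 to 0.049 for Kif27, -0.079 to 0.031 for Kif3c, -0.085 to 0.062 for Kif4, -0.058 to 0.055 for Kif6, -0.069 to 0.047 for Kif24, -0.14 to 0.065 for Kif1a, -0.097 to 0.0089 for Kif1b, -0.055 to 0.041 for Kifc3, -0.022 to 0.084 for Kif22, -0.098 to 0.0077 for Kif26b, -0.27 to 0.098 for Kif11, -0.00079 to 0.090 for Kif5c and -0.0078 to 0.46 for Kifc1. None of these passed. The labels do not say whether the replicate numbers pair the arrays. Deviations of same-numbered WT and KO arrays from their group means correlated at -0.17, 0.072 and 0.18 over genes. With 3 arrays per group these values cannot decide whether the arrays are paired. With the replicate block in limma, 0 kinesin genes were called, and Kif23 and Kif18a had adjusted p-values of 0.72 and 0.71. The simulated recovery of small shifts shows that differences the size of that of Kif23 would seldom pass with 3 arrays per group.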
